A study of Mus musculus with 12 samples.

Results

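The density step within NIH3T3 cells that carry Tead2-VP16 was measured as gene expression in cells at complete confluency against proliferating cells at a lower density. NIH3T3 is an established mouse fibroblast line that stops dividing when it covers the dish. The comparison takes 4 of the 12 arrays of the study, chosen by sample title, and covers 18193 genes, each read by 1 probe set. Tead2-VP16 joins Tead2, a DNA-binding transcription factor, to the activation domain of a viral protein. Both groups of 2 arrays carried this fusion in the same cell line. The first group was labelled as proliferating and was harvested slightly past the density at which normal cells are confluent (called high density here). The second was harvested at complete confluency. The other 8 arrays, 2 per group, came from Yap-expressing cells at high density, Tead2-EnR cells (Tead2 with a repressor domain) at 30% confluency, and cells infected with a control virus at 30% confluency and at complete confluency. The labels give no cell number per dish and do not say whether the cells were a pool or a clone, which promoter drove the fusion, or whether the arrays within each group are independent cultures. P-values therefore measure only the spread between these arrays.

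Tead factors bind DNA and take their activity from coactivators, chiefly Yap and Taz. In crowded cells the Hippo kinases keep Yap out of the nucleus, so that Tead target genes such as Ccn1, Ccn2 and Ankrd1 are less expressed. The VP16 domain activates transcription without Yap, which makes the fusion a tool to hold Tead targets active in dense cultures. A second density-sensitive system, serum response factor (SRF) with its actin-sensing cofactors, drives contractile and cytoskeletal genes, and Id genes are classical direct targets of BMP signalling.

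Tead2 itself read 9.41 and 9.23 on the 2 high-density arrays and 9.76 and 9.76 on the 2 arrays at complete confluency, in log2 intensity. The control arrays read 9.62 and 9.63 at 30% confluency and 9.87 and 9.90 at complete confluency, the Yap arrays 9.0 and 9.1, and the Tead2-EnR arrays 9.82 and 9.84. Its single probe set rose by 0.44 in the Tead2-VP16 step (SE 0.07, limma adjusted p = 0.0012) and at complete confluency was above the control arrays at 30% confluency and below the confluent control arrays. The files do not say which stretch of Tead2 the probe set reads or whether the fusion contains it, so this level checks neither the construct nor the labels.

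Arrays of 1 group correlated at r = 0.998 across genes, and the group means at high density and complete confluency at r = 0.995. All 11 fibroblast markers measured, among them Col1a1, Vim and Thy1, lay above the median gene in both groups (7.85 to 14.35 at high density, 8.02 to 14.54 at complete confluency, log2). The log2 gap between 3′ and 5′ transferrin receptor probe sets, which reads RNA integrity and labelling, was 1.23 and 1.23 at high density and 1.54 and 1.46 at complete confluency. The mean log2 signal of 12 probe sets for added poly-A control RNA was 8.38 and 8.48 against 8.65 and 8.95. Neither measure overlapped between the groups, whereas the actin 3′ to 5′ gaps did (0.29 and 0.18 against 0.20 and 0.35). Their part in the results was not tested.

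At complete confluency the Tead2-VP16 cells had much less mRNA of the Id genes and of smooth muscle and contractile genes, less mRNA for cholesterol synthesis and for ribosome assembly, and more mRNA of many matrix and growth-arrest genes. Of 18193 genes, 4465 were called at an adjusted p below 0.05 (24.5%), of which 2204 were higher at complete confluency (12.1%) and 2261 lower (12.4%). These shares are the reference for the counts of called list members below. With only the genes above the median level tested, 2492 were called higher and 2424 lower, more calls from fewer genes. The shares of all genes are therefore a low reference for lists of well-expressed genes. For such lists a count somewhat above these shares is not read as an excess. Most shifts were small. Only 44 called genes rose at least 2-fold (0.242%) and 64 fell at least 2-fold (0.352%), and the median change of all genes was -0.025 on the log2 scale. In 10954 genes (60.2%) the arrays of the groups did not overlap, against 33.3% for 2 against 2 arrays in random order. The 12 largest rises and 12 largest falls plotted by array were chosen among called genes without overlap and above the median gene in their higher group. Some, such as N4bp2l1 and Lcp1, lay below the median gene in the other group. Without replicate 1 of the high-density group the calls numbered 1430 higher and 1335 lower. In bulk RNA, fewer cells that express a gene and less RNA per cell cannot be told apart.

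**Figure D1:**
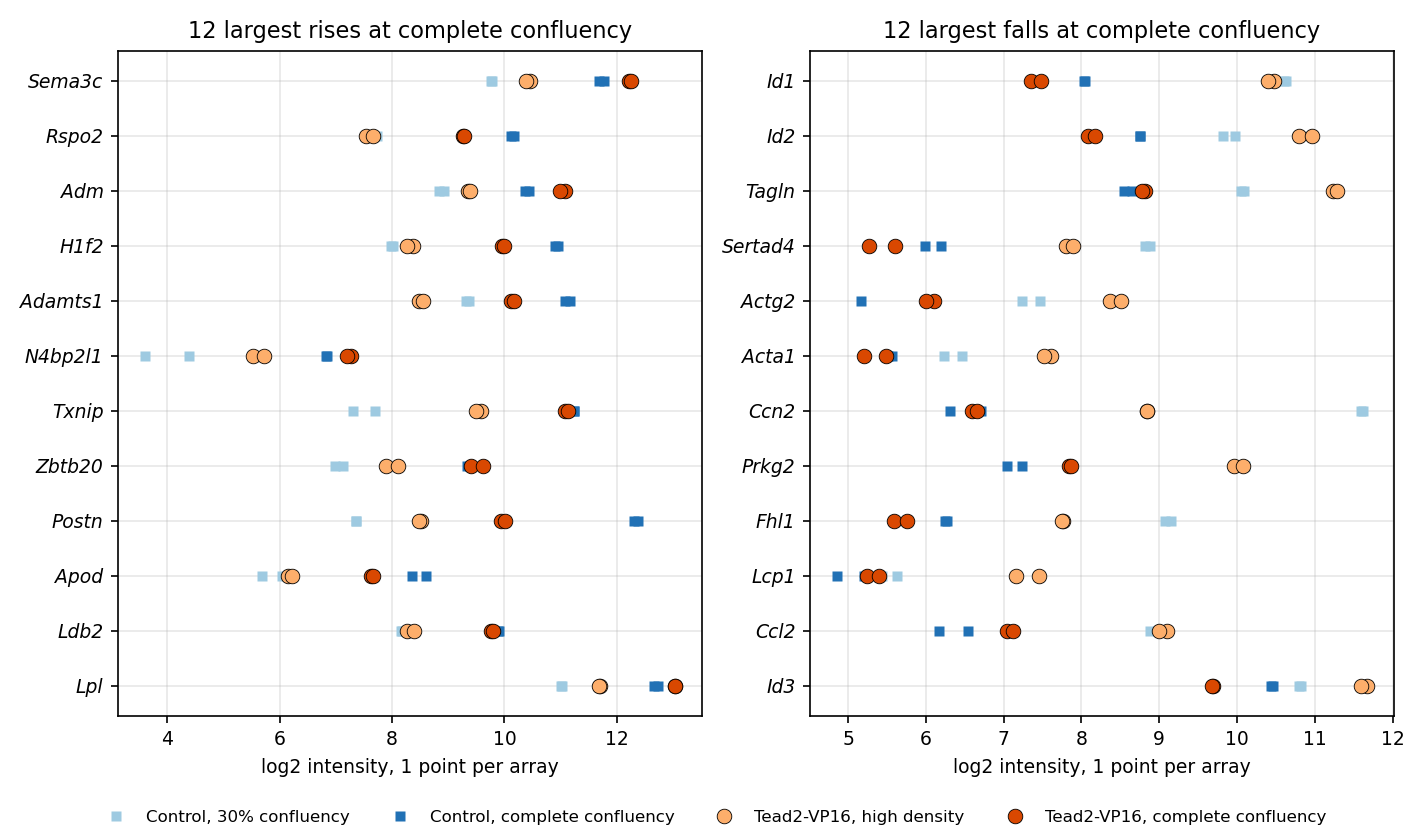
Log2 intensity of the 12 largest rises (left) and 12 largest falls (right) of the Tead2-VP16 density step, 1 point per array. Circles are Tead2-VP16 cells at high density (light) and complete confluency (dark), squares control cells at 30% confluency (light) and complete confluency (dark). The genes were chosen among called genes whose light and dark circles do not overlap. Id1 moved from 10.47 and 10.40 to 7.35 and 7.48.

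Id1 showed the largest fall among the named genes. It encodes a helix-loop-helix protein that blocks differentiation factors. Id1 read 10.47 and 10.40 at high density and 7.35 and 7.48 at complete confluency, a fall of 8.12-fold (log2 -3.02, SE 0.06, limma adjusted p = 2.2e-08). Its relative Id2 went from 10.79 and 10.96 to 8.08 and 8.18, which is 6.71-fold lower. Id3 went from 11.67 and 11.60 to 9.69 and 9.67, which is 3.87-fold lower. For each of these Id genes both arrays at complete confluency lay far below both at high density. Id4, the other family member, fell by 0.56.

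The Id genes stood in a list of 32 measured TGF-beta and BMP genes, of which 10 were called lower and 4 higher, against 12.4% and 12.1% of all genes. Smad6 and Smad7, inhibitory Smads that are induced by BMP and TGF-beta signals, fell by 1.19 and 0.87. Skil, a repressor of Smad activity, fell by 0.95. Among ligands and their carriers, Tgfb3 fell by 0.98, Tgfb1 by 0.44 and Ltbp2, a latent TGF-beta binding protein, by 0.84. The 4 called higher were Bmp1, a procollagen-cleaving protease in spite of its name (0.56), and the receptors Tgfbr3 (0.44), Bmpr2 (0.25) and Tgfbr1 (0.17). The list median was -0.06.

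Genes of actin filaments and of SRF formed the next block of falls. Of 35 measured members 22 were called lower and 1 higher, and the list median was -0.47. Tagln, an actin-binding protein of smooth muscle, read 11.23 and 11.28 at high density and 8.82 and 8.77 at complete confluency (5.50-fold lower, limma adjusted p = 2.5e-08). Actg2, smooth muscle gamma-actin, went from 8.37 and 8.51 to 6.11 and 6.0, and Acta1, skeletal alpha-actin, from 7.61 and 7.52 to 5.20 and 5.49. In all 3 genes the gap between the groups was several times that between arrays of a group. Calponin (Cnn1) fell by 1.56, myosin light chain 9 (Myl9) by 1.29, tropomyosin 1 (Tpm1) by 1.22 and smooth muscle alpha-actin (Acta2) by 1.05. Srf itself fell by 0.54. Fhl2, a LIM-domain cofactor, was the 1 member called higher (0.61). Some cytoskeletal genes were not called, among them Actb (-0.13), Flna (-0.02), Myh9 (0.07), Zyx (0.05) and the SRF cofactor Mrtfa (0.03). Other large falls were in the LIM protein Fhl1 (-2.08, 1 of 2 probe sets), in Sertad4 (-2.41) and in the actin-bundling plastin Lcp1 (-1.99).

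Vcl and Acta1 are shown by their proximal promoters because both fell and both hold a CArG box, the element bound by SRF, which is in capitals. The bases end at the annotated transcription start and come from RefSeq on build GRCm38.p6, printed 5′ to 3′ on the strand of the gene. Vcl lies at chr14:20929148-20929397 (plus strand), with the match 227 bases before the start, and Acta1 at chr8:123894776-123895025 (minus strand), with the match 73 bases before it.
Vcl: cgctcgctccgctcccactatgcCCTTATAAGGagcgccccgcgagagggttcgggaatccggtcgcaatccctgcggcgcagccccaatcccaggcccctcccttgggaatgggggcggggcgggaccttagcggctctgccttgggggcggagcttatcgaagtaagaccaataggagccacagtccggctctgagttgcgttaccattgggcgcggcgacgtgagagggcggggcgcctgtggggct
Acta1: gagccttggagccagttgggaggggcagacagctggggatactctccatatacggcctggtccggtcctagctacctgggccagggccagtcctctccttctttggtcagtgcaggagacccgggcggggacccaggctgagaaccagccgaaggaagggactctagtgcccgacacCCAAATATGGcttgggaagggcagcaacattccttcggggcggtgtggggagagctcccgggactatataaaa
Vinculin (Vcl), which ties actin to adhesion sites, read 12.76 and 12.70 at high density and 11.50 and 11.52 at complete confluency (2.34-fold lower, limma adjusted p = 1.1e-06). A CArG box on either strand, between 250 bases before and 50 after the start, was found in 11 of 31 promoters of the actin list (35.5%) and in 1.58% of the 14452 tested genes with a promoter sequence. It was in 2.12% of genes called lower and 1.19% of genes called higher. The Tead motif GGAATG, on either strand, was in 9 of 31 promoters of the actin list (29.0%), against 15.3% of tested genes. It also stands, unmarked, in both sequences printed above. The CArG motif was added after values had been seen, and a match is a description of letters only.

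Tead target genes did not move as a block. Of 23 measured Yap and Tead targets 11 were called higher and 4 lower, against 12.1% and 12.4% of all genes, with a median of 0.20. Ccn2, a secreted matricellular protein, read 8.85 and 8.84 at high density and 6.6 and 6.65 at complete confluency, which is 4.65-fold lower (log2 -2.22, SE 0.11, limma adjusted p = 1.6e-06). Its relative Ccn1 went the other way, from 9.82 and 9.70 to 10.19 and 10.23 (1.37-fold higher, adjusted p = 0.00038), and all 4 of its probe sets were called higher, by 0.32 to 1.29. Ankrd1, a nuclear ankyrin repeat protein, read 7.69 and 7.58 against 7.78 and 7.82, with groups that did not overlap and a difference of 0.17 (SE 0.09, adjusted p = 0.23) that did not pass the test. The other targets called lower were the kinase gene Nuak2 (-0.52), the transcription factor gene Foxf2 (-0.35) and Fjx1 (-0.22).

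Among targets called higher, Crim1, a membrane protein that binds BMPs, rose by 1.02 and Gadd45a, a stress-induced growth-arrest gene, by 1.0. Rbms3, an RNA-binding protein, rose by 0.90, tissue factor (F3) by 0.62 and the Yap-binding angiomotin-like Amotl2 by 0.44. Of 27 measured Hippo components 11 were called higher and 3 lower, against 12.1% and 12.4% of all genes, with a median of 0.15. The count of lower calls was near the share of all genes. The 3 lower were Tead4 (-0.90), a further DNA-binding Tead factor, the scaffold gene Wwc1 (-0.27) and the kinase activator Mob1a (-0.20). The coactivators Yap1 (0.31) and Wwtr1, which encodes Taz (0.24), were called higher, as was Vgll4, a competitor of Yap for Tead binding (0.62). The kinase gene Taok1 (0.51, SE 0.17) was called higher close to the threshold (limma adjusted p = 0.049). For Yap1 1 of 2 probe sets passed.

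The promoters of Ccn1 and Ankrd1 are printed for the Tead motif GGAATG, in capitals on whichever strand it lies. Both are standard Tead targets, and neither fell with Ccn2. No promoter sequence was available for Ccn2, so the motif could not be compared with that gene. The windows end at the start site on build GRCm38.p6 in RefSeq, at chr3:145649986-145650235 for Ccn1 and chr19:36119845-36120094 for Ankrd1, both on the minus strand. The match lies 103 bases before the start in Ccn1 (on the opposite strand, read as CATTCC), and the matches in Ankrd1 lie 210 and 123 bases before it.
Ccn1: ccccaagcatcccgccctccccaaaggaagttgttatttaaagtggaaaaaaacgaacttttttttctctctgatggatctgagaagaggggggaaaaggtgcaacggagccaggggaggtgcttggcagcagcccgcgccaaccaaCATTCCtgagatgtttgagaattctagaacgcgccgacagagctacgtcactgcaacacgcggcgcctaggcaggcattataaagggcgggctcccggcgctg
Ankrd1: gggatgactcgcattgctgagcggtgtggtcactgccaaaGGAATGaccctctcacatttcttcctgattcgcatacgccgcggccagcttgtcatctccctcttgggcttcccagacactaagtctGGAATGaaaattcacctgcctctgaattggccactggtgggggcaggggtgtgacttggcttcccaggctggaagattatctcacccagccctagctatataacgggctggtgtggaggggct
GGAATG was found in 7 of 15 promoters of the target list (46.7%), in 15.3% of all tested genes with a promoter sequence, in 16.7% of genes called higher and in 13.5% of genes called lower.

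**Figure D2:**
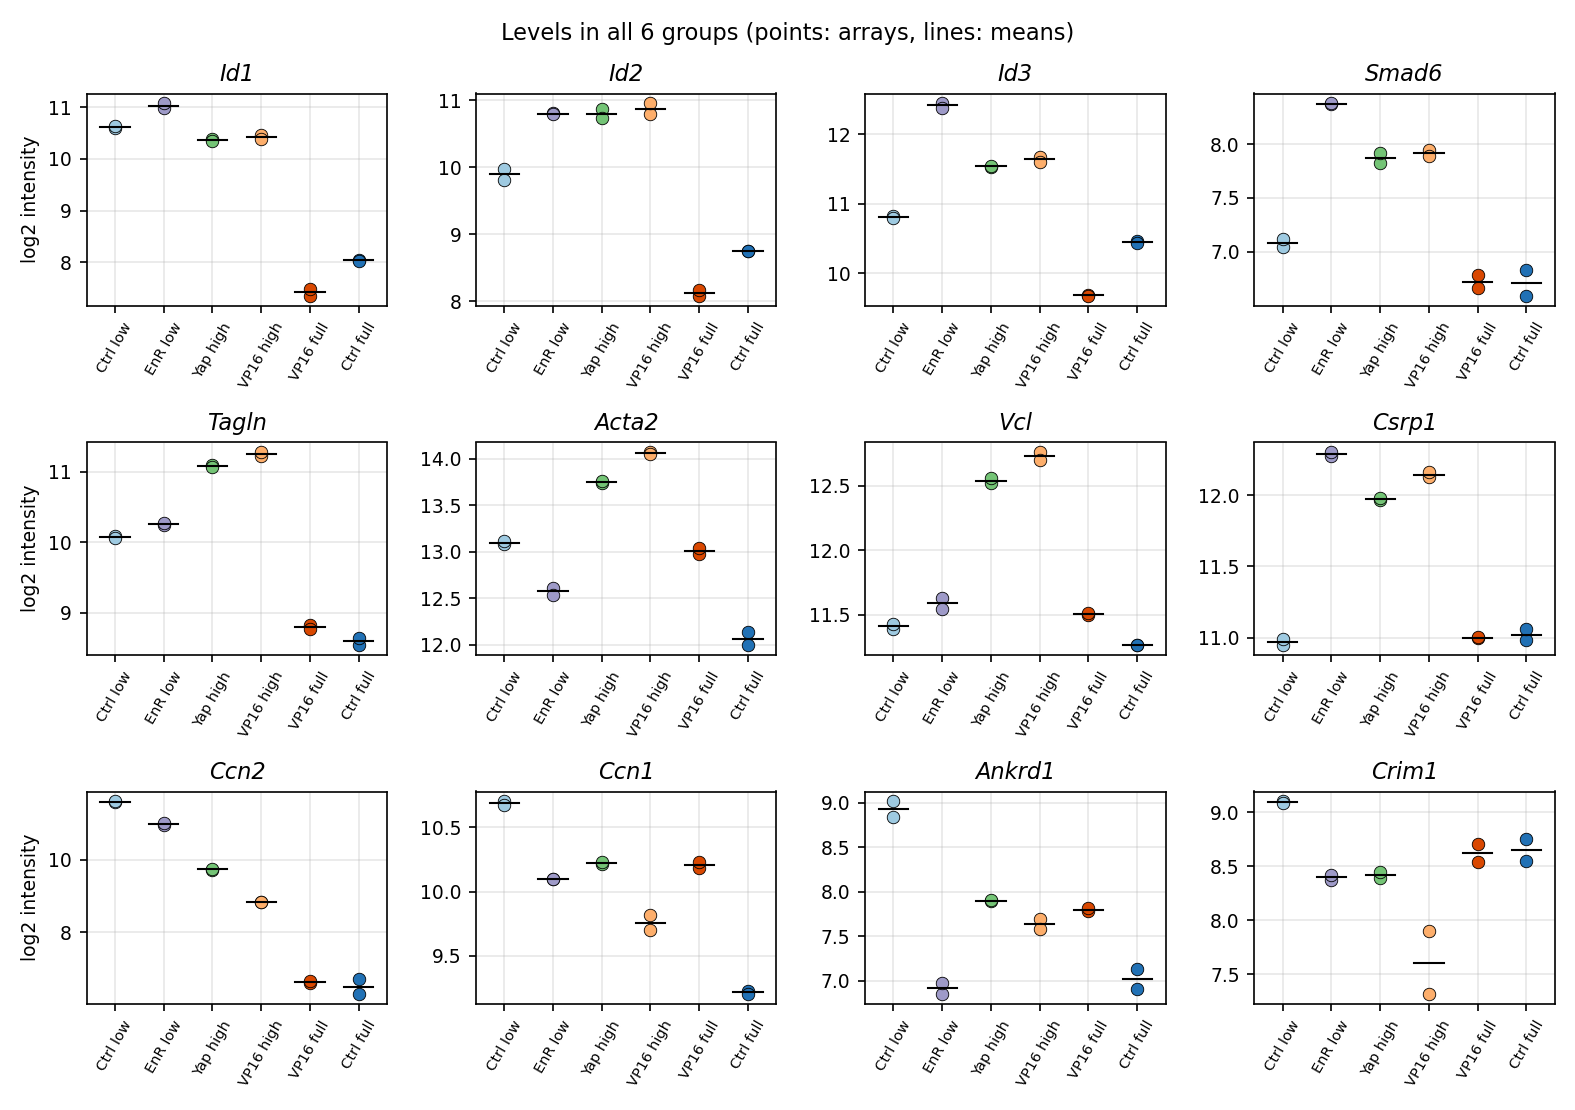
Log2 intensity of 12 genes in all 6 groups, with a point per array and a line at the mean of 2 arrays (low is 30% confluency, high is slightly past normal confluency, full is complete confluency). Id, Smad6, Tagln and Vcl levels drop between the high-density and full Tead2-VP16 arrays, Ccn2 ends near the full control, and Ccn1 stays above it.

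In the plot of levels in all 6 groups, Ccn2 at complete confluency lay in the range of the confluent control arrays (6.31 and 6.71). At 30% confluency the control arrays read 11.59 and 11.62. Ccn1 and Ankrd1 at complete confluency stayed above the confluent control arrays, which read 9.23 and 9.21 for Ccn1 and 6.90 and 7.14 for Ankrd1. Vcl and Csrp1, a LIM protein of actin bundles, were high in the Tead2-VP16 and Yap cells at high density. Vcl read 12.52 and 12.56 in the Yap arrays, 11.39 and 11.43 in control cells at 30% confluency and 11.27 and 11.27 in confluent control cells. At complete confluency the Tead2-VP16 arrays, at 11.50 and 11.52, lay much nearer to the control levels than at high density.

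All 20 measured genes of cholesterol synthesis and uptake were lower at complete confluency, and 18 were called lower and 0 higher, with a median of -0.67. Idi1, the isopentenyl diphosphate isomerase, read 10.82 and 10.94 at high density and 9.48 and 9.43 at complete confluency (2.69-fold lower, limma adjusted p = 1.4e-06). Farnesyl diphosphate synthase (Fdps) fell by 1.26 (1 of 2 probe sets), lanosterol demethylase (Cyp51) by 1.18 and squalene epoxidase (Sqle) by 1.15. Insig1, the sterol-sensing brake on SREBP processing, fell by 1.02. Hmgcs1, early in the pathway, fell by 0.59 and the transcription factor gene Srebf2 by 0.42. In fatty acid and triglyceride synthesis 8 of 20 were called lower and 0 higher, led by the elongase gene Elovl6 (-0.96). At an unadjusted limma p below 0.05, 0 cholesterol genes and 1 fatty acid gene were higher.

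Ribosome assembly genes fell by smaller amounts. Of 35 measured ribosome biogenesis genes and Myc targets 30 were called lower and 0 higher, with a median of -0.43. The largest falls were in the processing factor Rrp12 (-1.08), in Srm (-1.0) and Odc1 (-0.90), enzymes of polyamine synthesis, and in Nhp2 (-0.81) and Dkc1 (-0.80), parts of the RNA pseudouridylation complex. By contrast only Rps6 (0.26, 1 of 2 probe sets) passed the test among 28 cytosolic ribosomal protein genes. At a minimum of 1.5-fold, 10 of the 35 assembly genes were still called lower.

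The protein-folding genes of the endoplasmic reticulum were lower too, with 13 of 20 called lower and 0 higher (median -0.29). The secreted stress factors Creld2 and Manf fell by 0.71 and 0.63, the co-chaperone Dnajb9 by 0.66 and the chaperone BiP (Hspa5) by 0.35. Of 22 glutathione and Nrf2 genes 12 were called lower and 3 higher, against 12.4% and 12.1% of all genes. Nqo1, a quinone reductase, fell by 1.01, Gclc, the catalytic subunit that limits glutathione synthesis, by 0.86 and the sulfiredoxin gene Srxn1 by 0.71. Of 32 respiratory chain and ATP synthase genes 6 were called lower, from Cycs (-0.44) to Ndufa9 (-0.20), and 0 higher, against 12.4% and 12.1% of all genes. The respiratory genes all lay well above the median gene, where calls were commoner, so the count of lower calls is not read as an excess. At an unadjusted limma p below 0.05, 1 gene was higher in each of the ribosome assembly, protein-folding and respiratory lists.

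**Figure D3:**
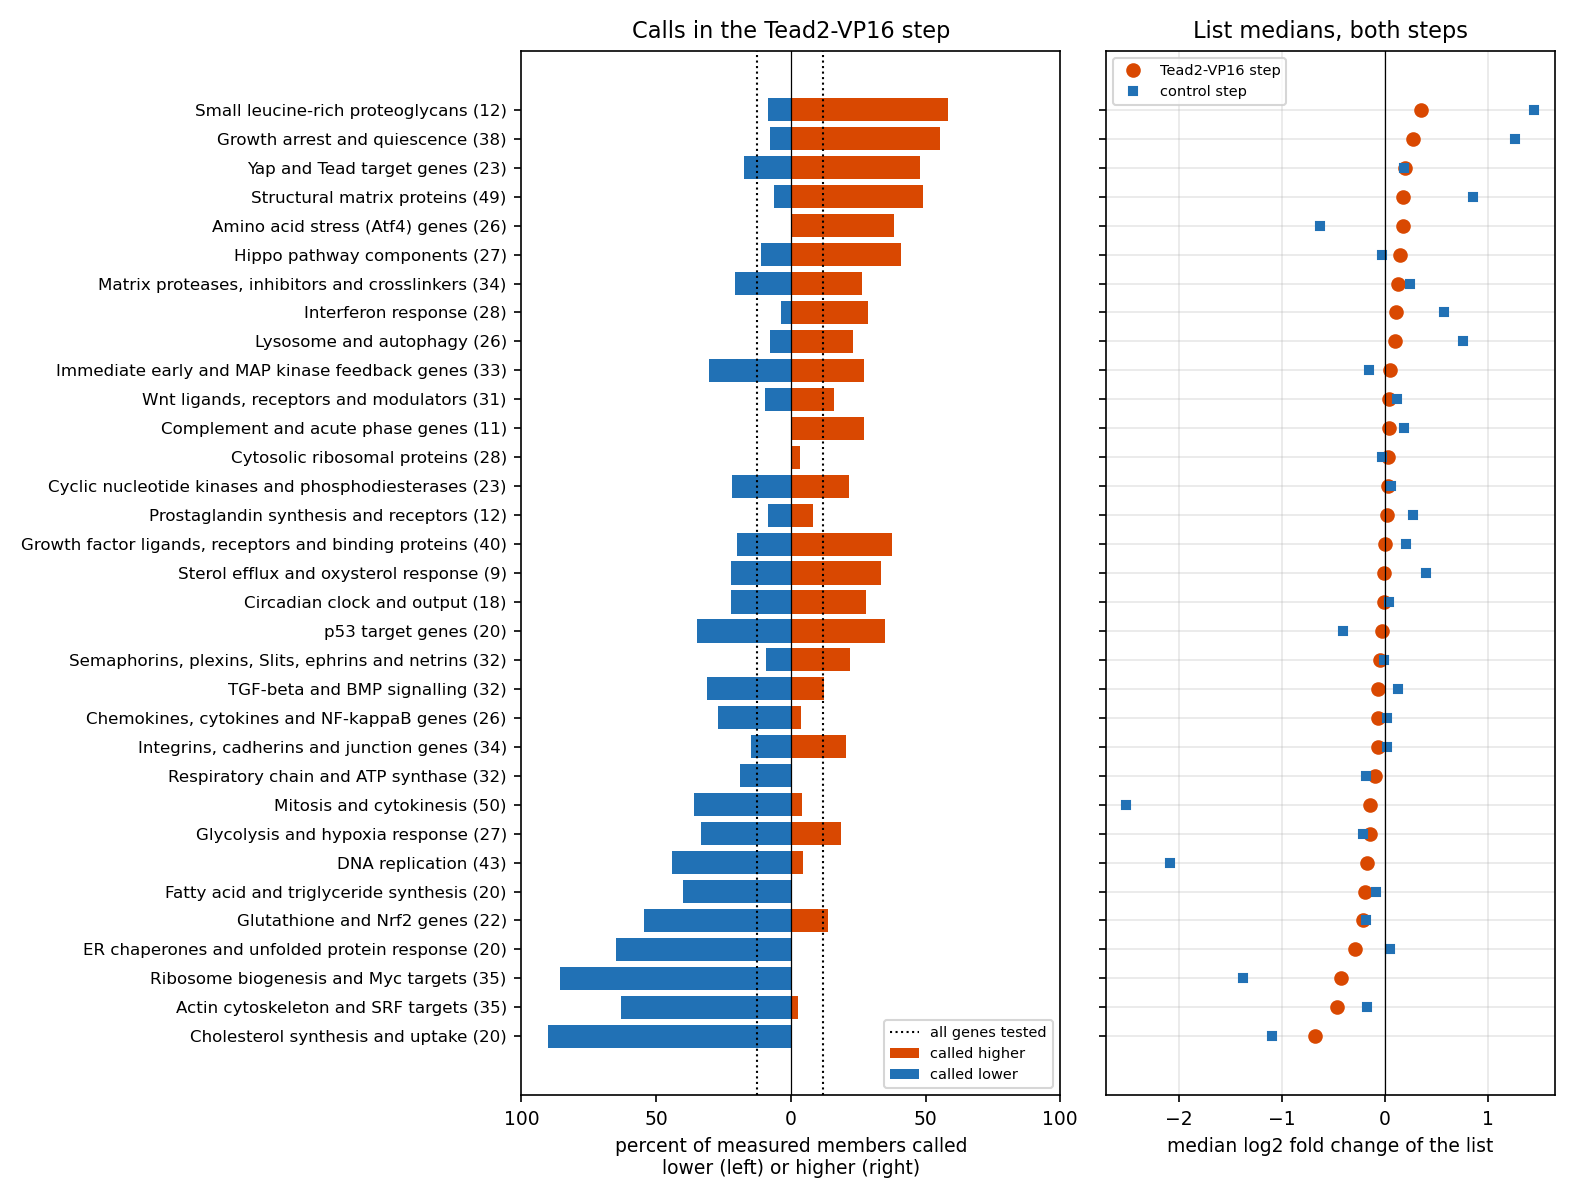
Left, percent of the measured members of each gene list (number in brackets) called lower or higher in the Tead2-VP16 step, with dotted lines at the percent of all genes. Right, the median log2 fold change of each list in the Tead2-VP16 step (circles) and in the control step (squares); cholesterol genes have the lowest Tead2-VP16 median (-0.67) and mitosis genes the lowest control median (-2.51).

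Cell cycle genes fell by small amounts. Of 50 measured mitosis and cytokinesis genes 18 were called lower and 2 higher, with a median of -0.14, and of 43 DNA replication genes 19 were called lower and 2 higher, with a median of -0.18. Cdc20, an activator of the anaphase-promoting complex, read 10.13 and 10.15 at high density and 9.43 and 9.36 at complete confluency, which is 1.68-fold lower. The replication licensing factor Cdc6 fell by 0.78, the ubiquitin-conjugating Ube2c by 0.70 and the sliding clamp Pcna by 0.50. The origin-binding Orc1 fell by 0.74 and cyclin A2 (Ccna2) by 0.50, each with 1 of 2 probe sets called. The called rises were topoisomerase Top2a (0.38), the kinetochore gene Cenpk (0.42, 1 of 3 probe sets), Pola1 (0.30) and Gins4 (0.21). Aurka fell by 0.70 on 1 of its 2 probe sets, while the mean of both gave -0.31 (limma adjusted p = 0.067).

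The high-density arrays were already low in mitosis genes, although the cells were labelled as proliferating. The list median was 7.34 and 7.36 at high density and 7.16 and 7.18 at complete confluency. It was 7.4 and 7.41 in confluent control cells and 10.17 and 10.12 in control cells at 30% confluency. The median at high density therefore lay close to that of the confluent control and far from that of the sparse control. Of 42 mitosis genes with a promoter sequence 28 held TTTGAA, the cell cycle homology motif (66.7%, against 15.7% of tested genes), and 29 held CCAAT, the NF-Y motif (69.0%, against 42.0%), on either strand.

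**Figure D4:**
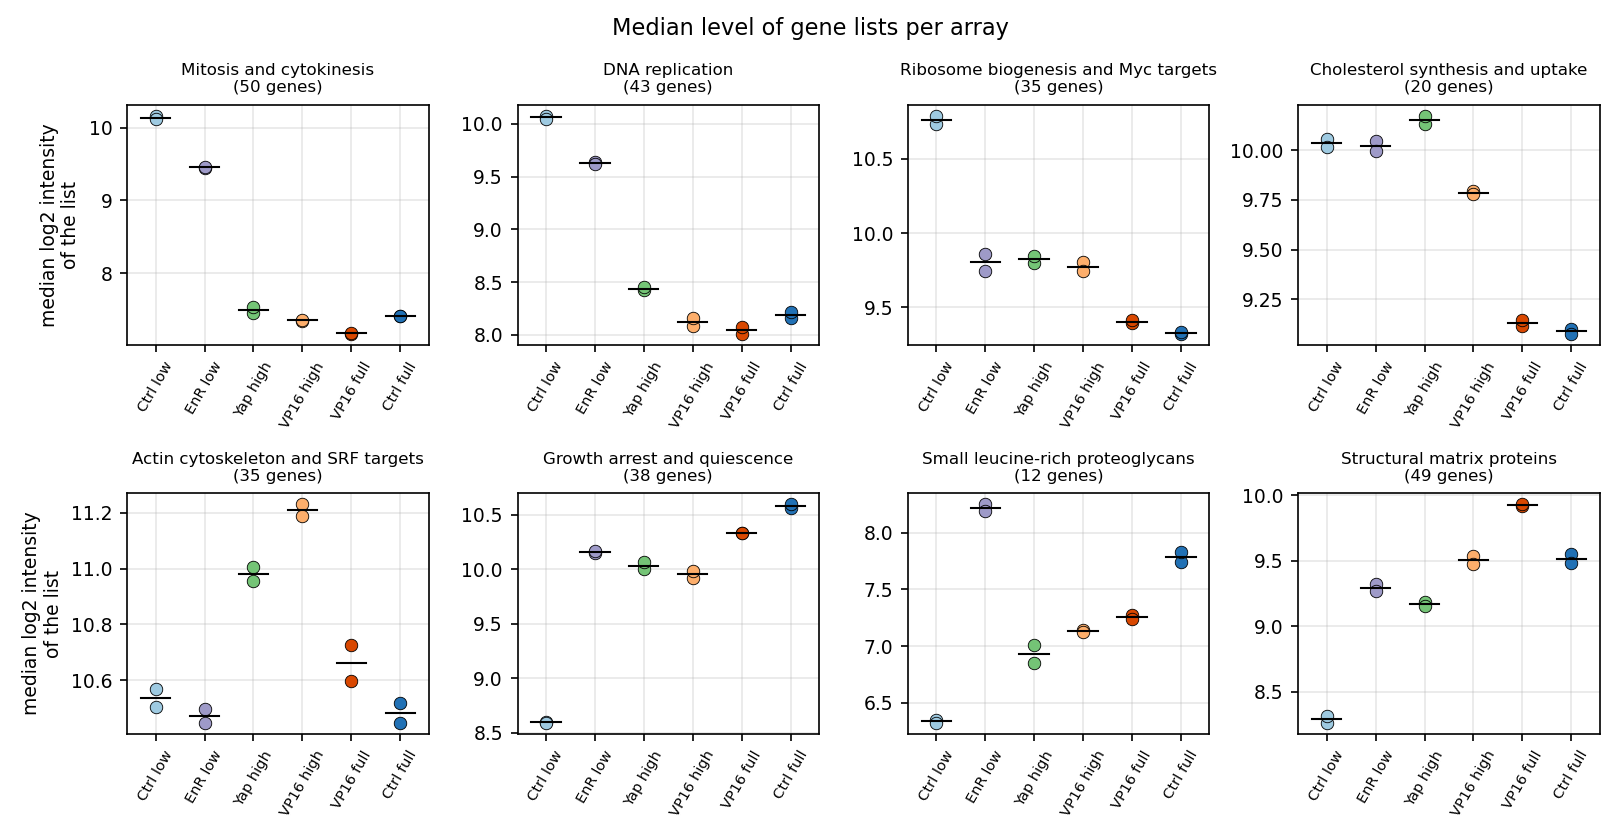
Median log2 intensity of 8 gene lists per array (points) in the 6 groups, with lines at the mean of 2 arrays; each panel has its own scale. Mitosis and replication medians are low in both Tead2-VP16 groups, whereas ribosome biogenesis, cholesterol and actin medians drop from high density to full confluency.

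Growth-arrest genes went up, with 21 of 38 called higher and 3 lower and a median of 0.27. Txnip, an inhibitor of thioredoxin and of glucose uptake, read 9.57 and 9.5 at high density and 11.08 and 11.13 at complete confluency (2.96-fold higher, limma adjusted p = 1.2e-05). Pdgfra, the PDGF receptor alpha, rose by 1.22, Gas2, which binds microfilaments, by 0.97 and Ccng2, a cyclin of arrested cells, by 0.89. The repressor Bcl6 rose by 0.83, the pocket protein Rbl2 by 0.73 and the kinase inhibitor p27 (Cdkn1b) by 0.50. The 3 called lower were Gas7 (-0.60), Trp53inp2 (-0.35) and Cdkn1c (-0.31); for Trp53inp2 the mean of its probe sets was 0.15, in the opposite direction.

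Of 49 measured structural matrix genes 24 were called higher and 3 lower, with a median of 0.18. Postn, periostin, read 8.52 and 8.47 at high density and 9.94 and 10.02 at complete confluency (2.79-fold higher, limma adjusted p = 8.1e-07). The basement membrane gene Nid2 rose by 1.23, Abi3bp by 1.15, Sned1 by 1.06 and type III collagen (Col3a1) by 0.65, while type I collagen moved less (Col1a1 0.34). The 3 called lower were Mgp (-1.21), an inhibitor of calcification, thrombospondin 1 (Thbs1, -0.49) and basement membrane collagen Col4a1 (-0.46). Small leucine-rich proteoglycans, which organise collagen fibrils, rose in 7 of 12 members. Decorin (Dcn) read 11.22 and 11.18 at high density and 12.42 and 12.50 at complete confluency. Ogn (0.94), Prelp (0.87) and Lum (0.85) followed, whereas Podn fell by 0.22. Lum lay below the median gene in both groups, with means of 4.15 at high density and 5.0 at complete confluency.

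In a list of matrix proteases, their inhibitors and genes of collagen crosslinking and processing, 9 of 34 were called higher and 7 lower. The shares of all genes were 12.1% and 12.4%. The called members included the crosslinking and processing genes Lox, Loxl1, Loxl3 and Pcolce (higher) and Plod2 and P4ha2 (lower). The metalloproteases Adamts1 and Adamts5 rose by 1.62 and 1.31, and Adamts1 read 8.48 and 8.55 against 10.12 and 10.16. Timp1, a metalloprotease inhibitor, fell by 1.47, while Reck, a membrane-bound inhibitor, rose by 0.86.

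The 3 largest rises among the named genes were in genes of secreted signals. Sema3c, a secreted semaphorin, showed the largest rise of the named genes, from 10.46 and 10.38 to 12.21 and 12.24 (3.50-fold, limma adjusted p = 1.6e-07). Rspo2, which amplifies Wnt signals, went from 7.54 and 7.65 to 9.27 and 9.28 on 1 of its 2 probe sets. Adm, the vasodilator peptide adrenomedullin, went from 9.36 and 9.38 to 11.07 and 10.98, a 3.15-fold rise. In these 3 genes the groups lay far apart and the arrays of a group close together. Apod, a lipid-binding lipocalin (1.46, 1 of 2 probe sets), and lipoprotein lipase (Lpl, 1.34) rose as well. The nuclear genes among the 12 largest rises were the linker histone H1f2 (1.65), the repressor Zbtb20 (1.5) and the LIM-binding cofactor Ldb2 (1.45).

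Of 40 growth factor, receptor and binding protein genes 15 were called higher and 8 lower, against 12.1% and 12.4% of all genes. Fgf2 fell by 1.24 and its receptor gene Fgfr2 by 0.66, and the EGF family ligands Ereg and Hbegf fell by 0.64 and 0.52. Igfbp4 rose by 0.91, the mannose 6-phosphate receptor Igf2r by 0.87 and Fgf10 by 0.70. Immediate early and MAP kinase feedback genes divided, with 9 of 33 called higher and 10 lower, against the same shares of all genes. The ERK phosphatase genes Dusp6 (-1.41), Dusp5 (-1.08) and Dusp4 (-0.64) and the AP-1 gene Fosl1 (-0.98) fell. Fosb (1.06), the mRNA-decay factor Zfp36 (0.69) and Jun (0.56) rose. Dusp4 (means of 5.4 at high density and 4.76 at complete confluency) and Fosb (4.11 and 5.18) lay below the median gene in both groups.

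Of 26 chemokine, cytokine and NF-kappaB genes 7 were called lower, against 12.4% of all genes, and 1 (Vcam1, 0.36) higher, against 12.1%. The monocyte attractant Ccl2 read 9.10 and 9.0 at high density and 7.04 and 7.11 at complete confluency (3.93-fold lower, limma adjusted p = 3.9e-06). Ccl7 fell by 0.86, Il6 by 0.81 and the inhibitor Nfkbia by 0.71. Il6 lay below the median gene in both groups, with means of 4.68 at high density and 3.87 at complete confluency. The cyclic GMP-dependent kinase gene Prkg2 went from 9.97 and 10.07 to 7.84 and 7.87, and the cyclic AMP phosphodiesterase Pde4b fell by 1.60.

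Amino acid stress genes, most of them targets of Atf4, were called higher in 10 of 26 and lower in 0 (1 at an unadjusted limma p below 0.05), with a median of 0.18. Vldlr rose by 0.71, the transsulfuration enzyme Cth by 0.62, the stress-induced Nupr1 by 0.61, Pck2 by 0.57, Ddit3 by 0.51 and Trib3 by 0.39. Within glycolysis and the hypoxia response, 9 of 27 genes were called lower and 5 higher, against 12.4% and 12.1% of all genes. Most of these genes lay above the median gene, where calls were commoner, so neither count is read as an excess. Hexokinase 2 (Hk2) fell by 0.61 and lactate dehydrogenase (Ldha) by 0.31, while the glucose transporter Slc2a1 rose by 0.61 and the oxidoreductase Ero1a by 0.74.

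Few markers of other cell types lay above the median gene. The 11 leukocyte markers were chiefly those of macrophages, with Cd3e and Cd79a of lymphocytes among them. None of these and none of 10 endothelial markers was called by limma (2 and 0 at an unadjusted p below 0.05). Above the median gene lay 3 leukocyte markers (Cd14, Csf1r and Lyz2) and 0 endothelial markers. The summed log2 level of the leukocyte markers was 61.9 and 62.4 at high density and 60.8 and 60.2 at complete confluency. Of 8 adipocyte markers only Lpl was called, and of 10 epithelial markers only Krt14 (-0.82). Among 10 muscle markers Des (-0.34, 1 of 2 probe sets) and Tnnt3 (0.56) were called, and only Des lay above the median gene.

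Control cells made a larger density step, from 30% to complete confluency, in which 8898 genes were called (48.9%), 4748 higher (26.1%) and 4150 lower (22.8%). The steps share no array but differ in starting density, so a difference between them cannot be told apart from the wider range of densities in control cells. Of genes called higher in the Tead2-VP16 step 1657 were also called higher in control cells (75.2% of the first list and 34.9% of the second), and 219 were called lower. Of genes called lower 1386 were also lower in control cells (61.3% and 33.4%), and 331 were higher. The difference between the steps was called in 6851 genes (37.7%), above 0 in 3065 (16.8%) and below 0 in 3786 (20.8%). Centring every array on its median changed these splits, to 3773 higher and 6341 lower in the control step and to 4335 above and 2755 below 0 in the difference.

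**Figure D5:**
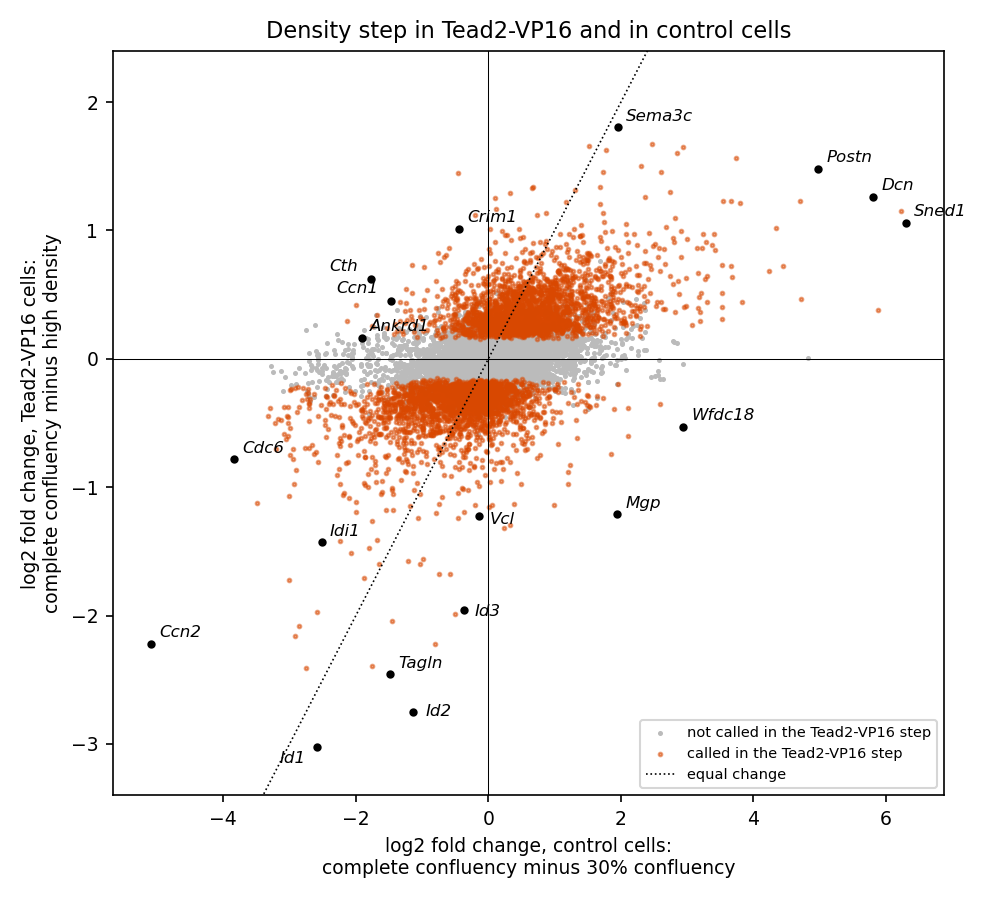
Log2 fold change of each gene in the Tead2-VP16 density step (vertical axis) against the control density step (horizontal axis), with genes called in the Tead2-VP16 step in orange, the rest in grey and named genes in black. The dotted line marks equal change; Id1, Id2, Id3 and Tagln lie below it, and Sned1, Dcn and Postn lie far to its right.

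Several groups named above differed in the size of the step. All 50 mitosis genes and all 43 replication genes fell in control cells, with medians of -2.51 and -2.09, against -0.14 and -0.18 in Tead2-VP16 cells. For Cdc20 the steps were -2.28 and -0.75 (difference 1.54, limma adjusted p = 4.8e-07). Matrix genes rose further in control cells, where Sned1 rose by 6.30 and Dcn by 5.80, and the differences of -5.24 and -4.54 were both called. Sema3c (1.95 in control cells) and Adm (1.52) showed no call in the difference, which was -0.15 (adjusted p = 0.19) and 0.13 (adjusted p = 0.28).

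Several contractile and Id genes showed the reverse order. Id3 fell by 1.95 in Tead2-VP16 cells and by 0.36 in control cells (difference -1.59, limma adjusted p = 2.3e-07), and Id2 fell by 2.75 and 1.14. Tagln fell by 2.46 and 1.48. Vcl fell by 1.22 and narrowly missed a call in control cells (-0.14, limma adjusted p = 0.054), with a called difference of -1.08. A second, dimmer Vcl probe set fell by 1.58 in Tead2-VP16 cells and by 0.50 in control cells, and was called in both. Csrp1 (-1.14 against 0.05) and the vitamin D receptor Vdr (-1.15 against 0.01) had called differences as well. Of 35 actin and SRF genes 15 had a called difference below 0 and 6 above it, against 20.8% and 16.8% of all genes. The count above 0 was near the share of all genes. Some differences below 0 came from rises in control cells without a call in Tead2-VP16 cells, such as Mylk (2.64 in control cells) and Lima1 (1.13). Acta2 (-1.05 against -1.03) and Actg2 (-2.39 against -1.76) had no called difference. Starting levels differed too: Tagln read 11.23 and 11.28 in Tead2-VP16 cells at high density and 10.09 and 10.06 in control cells at 30% confluency.

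Of 23 Yap and Tead targets 7 had a called difference above 0, 3 below it (Tgfb2, F3 and Asap1) and 13 none. Ccn1 fell by 1.47 in control cells and rose by 0.45 in Tead2-VP16 cells (difference 1.92, limma adjusted p = 9.7e-08). A second Ccn1 probe set fell by 1.49 in control cells, while the other two, both dimmer, read 0.19 and 0.22 there and were not called. Ankrd1 fell by 1.91 in control cells, while its change in Tead2-VP16 cells was 0.17 with no call (difference 2.07, adjusted p = 1.4e-06). Ccn2 fell by 5.10 in control cells and by 2.22 in Tead2-VP16 cells (difference 2.88, adjusted p = 4.6e-07). Amino acid stress genes fell in control cells (18 of 26 called lower, median -0.63), and 19 of 26 had a called difference above 0.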

How the data were processed

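Total RNA from 12 samples of NIH3T3 cells was hybridized to Affymetrix mouse arrays. The authors deposited probe set values as linear intensity, made with RMA per the submitters' processing notes, which give no version; RMA includes quantile normalization. The number of arrays limits the precision. Log2 was taken here before any test. Of 45101 probe sets, 34945 had exactly 1 gene symbol, 932 several and 9160 none in the platform annotation, and each of 18193 genes was read by its brightest single-symbol probe set, judged by the 12-array mean. Names were checked against a RefSeq gene table (GRCm38.p6).

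All 12 arrays were fitted with 1 mean per group in limma 3.58.1 (lmFit, contrasts.fit, eBayes; R 4.3.3); degrees of freedom were 6 (residual) and 3.45 (prior). Two-sided tests were used, with Benjamini-Hochberg adjustment over all genes, and a gene was called below 0.05. The fit was tested on simulated data. Figures used matplotlib 3.10.9.

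The members and the 39 gene lists (976 of 1038 entries measured) were chosen with earlier results of these data known, and no list was tested as a set. The named genes were the 12 largest rises and 12 largest falls with a mean above the median gene in the higher group, Tead2, Yap1, Ccn1, Ccn2 and Ankrd1, up to 4 called members of each list by adjusted p, the 8 largest opposite steps, the 6 largest steps with no call in control cells, and the members behind counts of 5 or fewer. Other list members were named after their values were seen. Alternatives covered normalization, pseudocount, probe set choice, level and fold filters, the replicate block and each array left out.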

Additional observations from a re-analysis of the deposited data

Results flagged for a closer look

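Genes that moved in opposite directions in the Tead2-VP16 and control density steps were flagged: 550 genes were called in both steps with opposite signs. Each was also called in the difference between the steps, which opposite called signs make nearly certain. Of genes called higher in the Tead2-VP16 step 219 were called lower in control cells (9.94%, against 22.8% of all genes). Of genes called lower, 331 were called higher there (14.6%, against 26.1% of all genes). The starting densities of the steps differ. Among the named genes, differences (Tead2-VP16 step minus control step, log2) were negative for Wfdc18 (-3.46), Mgp (-3.15), Trp53inp2 (-2.95), Gas7 (-2.70), Egr2 (-2.59), Cbr2 (-2.48), Dnajb9 (-1.71), Nrp1 (-1.58), Nfkbia (-1.27), Pde4d (-1.26), Pcdh7 (-0.77), Lpcat3 (-0.72) and Scd2 (-0.55). They were positive for Cenpk (2.41), Cth (2.39), Ccn1 (1.92), Ifit2 (1.78), Cavin2 (1.69), Slc2a1 (1.09), Nupr1 (0.97), Aldh1l2 (0.96), Ero1a (0.95) and Pck2 (0.73). Probe sets of some of these genes disagreed in control cells. For Ero1a 1 of 3 fell there (-0.21) while the other two (0.08 and 0.11) were not called. For Scd2 1 of 3 was called higher there (0.21), and for Pck2 the fall (-0.15) was called among genes but by neither probe set when all were tested. For Cenpk 1 of 3 probe sets was called in either step, and dimmer probe sets of Pcdh7 (0.50) and Trp53inp2 (0.65) rose in Tead2-VP16 cells. Mgp, with 1 probe set, read 9.84 and 9.81 at high density and 8.66 and 8.57 at complete confluency in Tead2-VP16 cells. In control cells it read 6.23 and 6.61 at 30% confluency and 8.43 and 8.29 at complete confluency, so the confluent levels of the cell types lay near each other. Groups of 2 arrays are too small to look for single arrays far from the rest.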

How the results depend on the processing

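The replicate numbers do not pair the arrays: deviations of same-numbered arrays correlated at -0.0107 in the Tead2-VP16 groups and 0.0153 in the control groups. With the replicate number as a block, 2159 genes were called higher and 2218 lower, and none of 158 named genes changed its call. Leaving out 1 array of the 4 gave 1430 to 1618 genes higher and 1335 to 1793 lower. A 1.5-fold minimum left 329 higher and 283 lower (control step 2328 and 1891, difference 1612 and 1940), and 51 of 158 named genes lost their call. Testing every probe set gave 3636 and 3566 (control step 8238 and 7666, difference 5442 and 6040). Centring arrays on their medians gave 6341 lower calls in the control step and changed the split of the difference to 4335 higher and 2755 lower. For the control step, leaving out 1 array gave 4247 to 4446 higher and 3685 to 3995 lower, and for the difference 2742 to 2897 higher and 3267 to 3565 lower. The mean of all probe sets reversed Pcdh7 (0.017), Erg (-0.070) and Trp53inp2 (0.15); the cause was not tested. By list, calls over all alternatives ranged from 15 to 24 lower for actin genes, 13 to 19 for cholesterol genes, 10 to 30 for ribosome biogenesis and 3 to 24 for mitosis genes. Growth-arrest calls ranged from 9 to 24 higher and matrix calls from 5 to 26.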

Other observations

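Further lists are set against 12.1% of all genes called higher and 12.4% called lower. Of 28 interferon-response genes 8 were called higher and 1 lower, led by Ifit3 (0.60) and Ifit2 (0.54). Of 11 complement and acute phase genes C1s1 (1.23), C1ra (0.61) and Lbp (0.51, 1 of 2 probe sets) were called higher. Of 18 circadian genes 5 were called higher and 4 lower. Bhlhe40, a repressor of the clock, fell by 0.99 and had no call in control cells (-0.14), while Rora rose by 0.82 and the output gene Dbp by 0.79. Of 20 p53 target genes 7 were called higher and 7 lower, from Gadd45a (1.0) to Aen (-0.65).

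Genes called in the Tead2-VP16 step and in the difference, with no call in control cells, also included rises. H3f3b, which encodes a replacement histone, read 5.74 and 5.91 at high density and 7.0 and 7.16 at complete confluency. Mpst, a sulfurtransferase, read 7.10 and 7.53 against 8.71 and 8.16, and its call was lost without replicate 1 of the high-density group (limma adjusted p = 0.077) or replicate 1 of the confluent group (0.073). Prrc2c rose by 1.17, and 2 of its 6 probe sets were called.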
